A study of Drosophila melanogaster with 2 samples.

Results

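A set of 10 genes of mRNA deadenylation, decapping and 5′ to 3′ decay were examined for binding of the transcription factor Ovo in adult Drosophila melanogaster females: twin, Pop2, Not1, Rga, Not3, me31B, tral, Edc3, Dcp1 and pcm. They are 10 of 13945 protein-coding genes and were chosen by name, from what their products do, with earlier results of these data known. All 10 were found in the Ensembl release 115 annotation of the BDGP6 assembly, whose coordinates are those of dm6. The symbol Dcp1 was read as DCP1 (FBgn0034921), the decapping activator, and not as the caspase gene Dcp-1, which shares the synonym.

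Binding was mapped by immunoprecipitation of chromatin and sequencing (ChIP-seq), with an antibody against GFP, in whole flies of a transgenic line that stably expresses Ovo with GFP at its C terminus. The 2 samples, biological replicates 1 and 4, are of 1 group. The labels name no driver and no further allele. Both samples came from adult females of unknown age, with chromatin sheared by sonication to fragments of 200 to 800 bp. No second condition was present, so counts for the 10 genes are set beside those for all protein-coding genes and no test between conditions was made.

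The files give peaks and no reads, so read depth is unknown and no read count stands behind any value. A thresholded list of 4477 peaks was made by the authors from a list of 30000 for each replicate and a list of 30000 called on both replicates together, the pooled list. The 3 longer lists hold weak signal and background as well as peaks. Each peak has the authors' score, an enrichment value without a stated unit, and rank 1 is the highest score of a list. Scores and ranks are used only within a list or between lists of equal length. The thresholded peaks were the first 4477 of the pooled list, so their ranks are also ranks in that list of 30000. The files hold no expression values, so the labelled whole female could not be checked against marker genes, and the cells in which a peak arose are not known. Of 5 germline genes looked up for orientation, a summit of the thresholded list stood within 500 bp of a transcription start site (TSS) for ovo, zpg, otu and aub, and vas had none. Of all protein-coding genes, 23.5% had such a summit. These 5 positions do not show the cells in which a peak arose. Precipitations from flies without the tag were not analysed here.

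Most cytoplasmic mRNAs lose their poly(A) tail before they are destroyed. The CCR4-NOT complex shortens the tail, the decapping complex then removes the 5′ cap, and an exonuclease digests the body of the message from its 5′ end. In the fly ovary some P-body proteins, Me31B and Tral among them, also hold maternal mRNAs silent in cytoplasmic granules while oocytes grow. The transcription factor Ovo has zinc fingers and acts in germline cells of females, and its core site is taken here as TAACNGT.

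Ovo-GFP peaks were found at the promoters of 5 of the 10 genes, among them both catalytic deadenylases, whereas the helicase gene me31B had no summit within 2 kb in any of the 4 lists. The 5 genes with such a summit within 500 bp of a TSS in the thresholded list were twin, Pop2, Rga, tral and pcm, against 23.5% of all protein-coding genes. At all 5 the summit also lay within 500 bp of a neighbouring gene's TSS, so the peak cannot be given to one gene of the pair. A thresholded summit lay inside the gene at 2 of 10, twin and tral, near the share of 13.0% of all genes. At twin it was the promoter peak already counted, so tral alone had a separate peak in the gene body. In the gene or no more than 2 kb from it, 7 of the 10 had a thresholded summit, against 36.8% of all genes. The further genes were Not1 and Edc3. The 10 genes had a median length of 5867 bp against 2166 bp for all protein-coding genes, so that their bodies offer more room for a summit. In the whole pooled list 9 of the 10 genes had a promoter summit (54.8% of all genes), 7 a summit in the gene body (48.7%) and 9 one within 2 kb (82.3%). The whole lists of replicates 1 and 4 each had 9 genes with a promoter summit (54.8% and 53.8% of all genes) and 9 within 2 kb (82.7% and 83.1%), and 7 and 6 with one in the gene body (50.7% and 47.6%). In lists of that length most genes have a summit nearby, and for the 2 kb region the share of the 10 genes was near that of all genes. Each share rests on 10 genes, so 1 gene moves it by 10 percentage points.

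**Figure D1:**
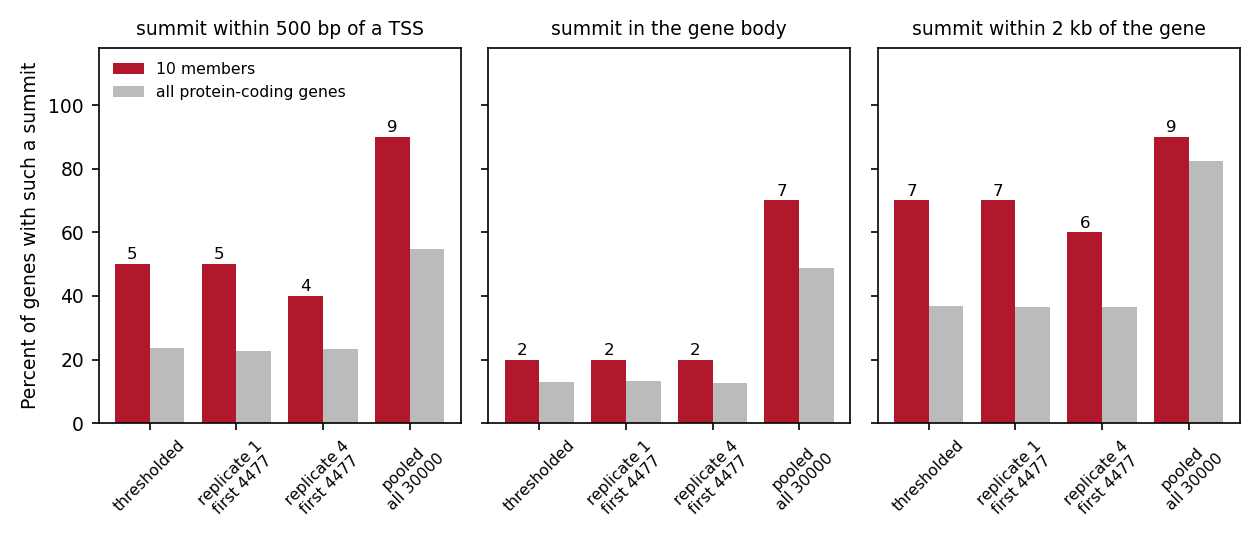
Percent of genes (y axis) with a summit within 500 bp of a TSS, in the gene body or within 2 kb, for the 10 genes (red, left bar of each pair, number of genes above it) and for all 13945 protein-coding genes (grey, right bar), by list on the x axis. For promoters the 10 genes stand at 50% in the thresholded list against 23.5% of all genes, and at 90% against 54.8% in the whole pooled list.

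The highest scores were at tral (FBgn0041775, 3L, 12515059 to 12520954, plus strand), which encodes an LSm14-family protein that joins Me31B in granules of silenced mRNA. It had 2 thresholded peaks, and the stronger was not at the promoter. Its summit at 12516042 lay 983 bp after the TSS in the first intron (12515573 to 12516558, 986 bp long), downstream of the start codon in all 9 annotated transcripts. The score was 583.9 and the rank 29 of 4477. In replicate 1 the rank was 20 and the summit 3 bp away, and in replicate 4 the rank was 51 and the summit 10 bp away. This peak was 260 bp wide, where 94.2% of thresholded peaks had the fixed width of 440 bp. Its sequence is shown whole because it holds the strongest signal at any of the 10 genes, read on the plus strand of dm6 at chr3L:12515934-12516193, with matches to TAACGG in capitals:

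tral intron: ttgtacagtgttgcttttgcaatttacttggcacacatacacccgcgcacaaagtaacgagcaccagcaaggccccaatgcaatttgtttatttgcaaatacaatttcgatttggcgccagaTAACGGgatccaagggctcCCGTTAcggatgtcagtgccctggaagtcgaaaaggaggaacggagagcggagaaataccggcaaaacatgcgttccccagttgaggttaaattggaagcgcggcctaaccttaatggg

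No TAACNGT stood within 50 bp of this summit. The 6-base form TAACGG overlaps the core site, but sets its free base to G and leaves its last base free. It stood within 50 bp of the summit 2 times in opposite orientation, at 14 to 19 bp and at 33 to 38 bp after it. Within 50 bp of a summit at least 1 TAACGG on either strand was present in 16.6% of the thresholded peaks, and at least 2 in 63 of 4477 (1.41%). Among the 100 peaks of highest score, 38 had at least 1 and 10 at least 2. The count of 2 or more was chosen after the tral sequence had been seen.

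The promoter peak of tral (3L, summit 12514853, at -206 bp from the TSS) had a score of 309.4 and rank 250, above 94.6% of the 2851 thresholded promoter peaks. It ranked 391 in replicate 1 and 206 in replicate 4. The summit lay only 38 bp from the TSS of sti, which encodes a citron kinase of cytokinesis and is transcribed the other way from a start 244 bp from that of tral. One core site stood in the window from 250 bp before to 50 bp after the tral TSS, at -87 to -81 bp, which is 119 to 125 bp from the summit. By the ranks in the thresholded list and the replicate lists, the promoter peaks most like it among 3259 genes were those of Cbs (ranks 255, 424 and 208 in the thresholded list, replicate 1 and replicate 4) and of Ssl1 and Chro, which share 1 peak (ranks 234, 359 and 196). Their distances from tral were 0.12 and 0.17 in log2 rank over these 3 lists.

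The catalytic subunits twin and Pop2 both had promoter peaks, at different ranks. Pop2 (FBgn0036239, 3L, 11998398 to 12002915, minus strand) encodes the Caf1 deadenylase. Its peak had the summit at 12003004, -89 bp from the first TSS and 151 bp from that of CG6928, a gene on the other strand. The score was 157.9 and the rank 1288. It ranked 1107 in replicate 1 and 1830 in replicate 4. The 3 summits lay within 10 bp of each other. With the window narrowed to 100 bp, Pop2 alone of the 10 genes had a promoter peak, against 11.7% of all protein-coding genes, so that at this width the share of the 10 genes was near that of all genes. It had no core site within 50 bp of the summit or in the promoter window, but held the DRE, TATCGATA, a site of housekeeping promoters, at -22 to -15 bp.

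The Ccr4 deadenylase is encoded by twin (FBgn0011725, 3R, 24196893 to 24221965, minus strand), at 25073 bp the longest of the 10 genes, with 4 TSSs. It had 2 promoter peaks about 1 kb apart. The first, with its summit at 24221133, had a score of 106.3 and rank 2631, and ranked 3578 in replicate 1 and 2675 in replicate 4. The replicate 1 summit lay 98 bp from it and that of replicate 4 at the same base. It stood at -249 bp from one of the later twin TSSs, in the 5′ UTR of longer twin transcripts, and 30 bp from a TSS of cav. The second, at 24222188, scored 83.4 and ranked 3848 of 4477, at -223 bp from the first TSS and 54 bp from another TSS of cav. It ranked 4725 and 4151 in replicates 1 and 4, so that its rank in replicate 1 fell outside the first 4477. The first summit lay inside twin and the second outside it. The neighbour cav encodes a telomere-capping protein and runs the other way. A TAACTGT stood at -132 to -126 bp from the TSS at 24220884 and another at -126 to -120 bp from the first TSS, both over 50 bp from the thresholded summits, though the replicate 1 summit had the first of them within 50 bp.

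Below the threshold, twin had a further summit in its long intron of 19648 bp. It ranked 5608 in the pooled list (24205698, score 63.8), 6393 in replicate 1 and 5532 in replicate 4. It was picked from the weaker summits because it carries a palindromic core site, matched on both strands. The sequence is given 50 bases either side of the summit on the minus strand of dm6 at chr3R:24205648-24205748. The promoter of Edc3, which had no thresholded promoter peak, also held overlapping matches on both strands, at -193 to -187 bp and -191 to -185 bp. Other pooled summits below the threshold had a core site within 50 bp, in twin (24218792, rank 7355) and in Rga (5611554, rank 10840). Most such summits of the genes studied had none. The share of all summits below the threshold with a core site was not computed, so whether the twin site is unusual was not tested. The overlapping matches of twin are in capitals:

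twin intron: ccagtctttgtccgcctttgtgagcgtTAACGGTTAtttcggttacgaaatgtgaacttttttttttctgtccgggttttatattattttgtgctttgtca

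**Figure D2:**
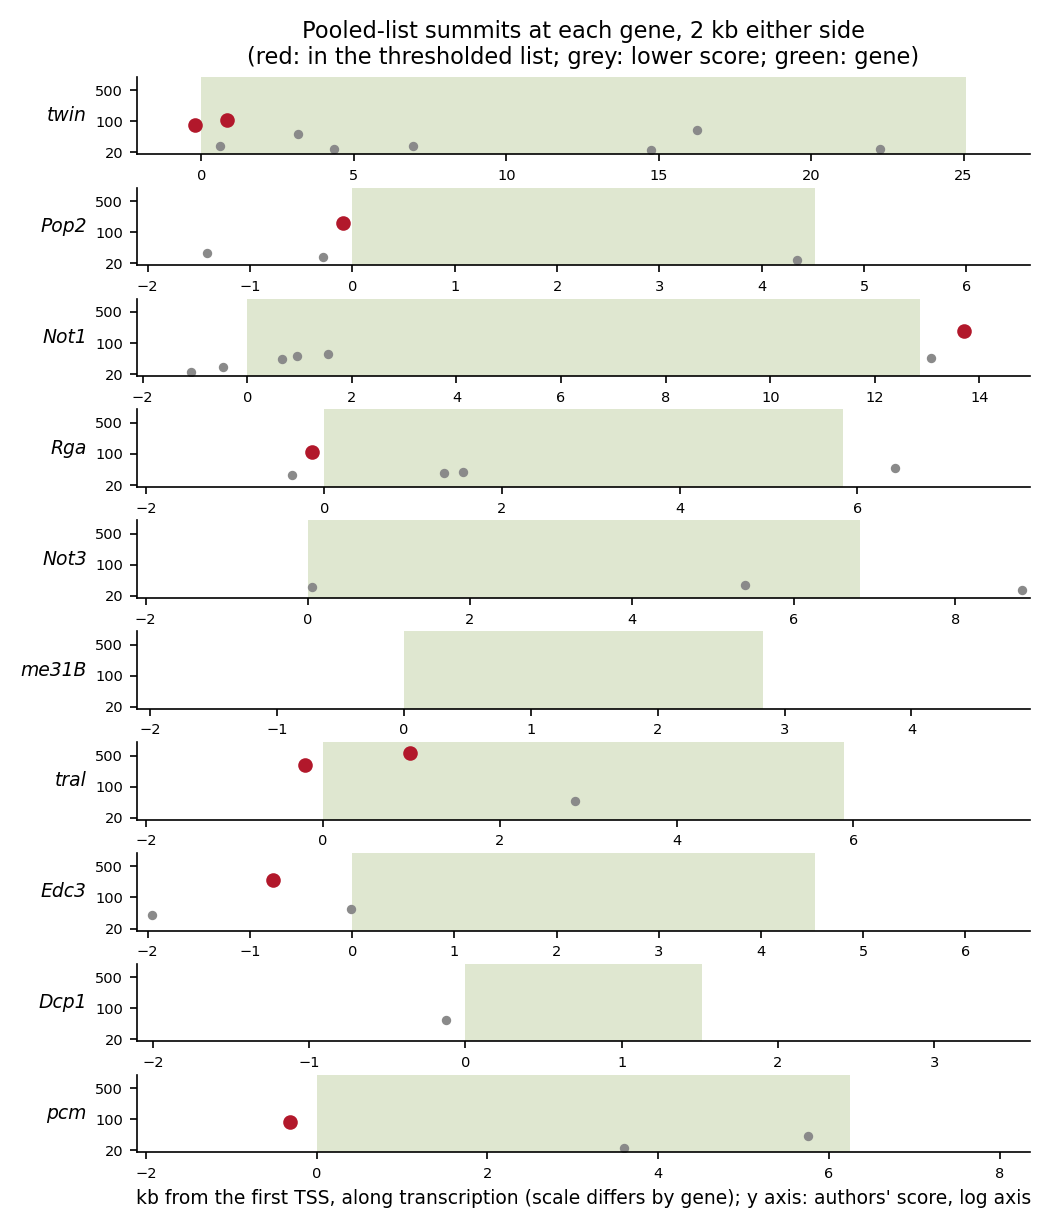
Summits of the pooled list in each gene (green) and in the 2 kb around it, by distance in kb from the first TSS along transcription (x axis, its scale differing between genes) and by the authors' score (y axis, log). Red points are the 9 thresholded peaks, 6 of them at promoters; grey points are weaker ones. The first intron of tral has the highest point at 583.9, and me31B has none.

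The other CCR4-NOT subunits differed among themselves. Rga (FBgn0017550, 3R, 5607275 to 5613112, minus strand) encodes the NOT2 subunit and had a promoter peak with a score of 112.0 and rank 2407. It ranked 2503 in replicate 1 and 2708 in replicate 4, so the 3 ranks were close. The summit at 5613253 lay at -141 bp from the Rga TSS and 105 bp from that of Atu, which encodes a Paf1 complex protein and starts 246 bp away on the other strand. Of the 6 promoter peaks of the 5 genes, that of Rga alone had a core site within 50 bp of its highest point. The site lay 42 to 48 bp from the summit, close to the 50 bp limit, and -189 to -183 bp from the TSS. The replicate 1 summit (5613284) also had it within 50 bp, but the replicate 4 summit (5613242) had none. Over all 2851 thresholded promoter summits the share with a core site was 13.7%, so that 1 of 6 was near the share of all.

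The promoters of Rga, Pop2 and tral are shown from 250 bases before the first TSS to the base before it, on the strand of each gene (dm6, chr3R:5613113-5613362, chr3L:12002916-12003165 and chr3L:12514809-12515058), since their core site and DRE matches differ. The core site, TAACTGT in Rga and its reverse complement in tral, and the DRE in Rga and Pop2 are in capitals:

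Rga: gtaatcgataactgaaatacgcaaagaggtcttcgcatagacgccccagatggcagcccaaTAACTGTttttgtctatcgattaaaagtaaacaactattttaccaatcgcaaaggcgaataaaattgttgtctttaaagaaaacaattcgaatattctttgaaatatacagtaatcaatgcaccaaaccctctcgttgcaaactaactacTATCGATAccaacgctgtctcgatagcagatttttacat

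Pop2: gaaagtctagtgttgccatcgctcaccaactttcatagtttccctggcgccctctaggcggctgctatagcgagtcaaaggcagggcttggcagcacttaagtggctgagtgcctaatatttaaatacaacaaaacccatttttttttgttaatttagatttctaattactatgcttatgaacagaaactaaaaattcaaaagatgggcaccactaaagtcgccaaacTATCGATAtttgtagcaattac

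tral: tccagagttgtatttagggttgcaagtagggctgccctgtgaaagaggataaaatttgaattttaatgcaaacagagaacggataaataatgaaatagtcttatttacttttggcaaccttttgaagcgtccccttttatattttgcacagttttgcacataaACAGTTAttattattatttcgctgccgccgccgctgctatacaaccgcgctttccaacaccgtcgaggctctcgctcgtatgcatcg

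Rga held both motifs, Pop2 the DRE alone and tral the core site alone. From 250 bp before to 50 bp after any TSS, searched on both strands, TAACNGT was present at 4 of the 10 genes (twin, Rga, tral and Edc3) against 16.3% of all protein-coding genes. The DRE was present at 3 (Pop2, Rga and Dcp1) against 10.2%, TAACGG at 2 (Not1 and Dcp1) against 11.2%, and the GAGA site GAGAGA at 0 of 10 against 17.1%. Genes with more TSSs offer more windows, and twin has 4.

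Not1, which encodes the scaffold of the complex (FBgn0085436, 2R, 9566146 to 9579007, minus strand), had no thresholded peak at its 3 TSSs. Its best promoter summit in the pooled list ranked 7274 (score 52.5), at -47 bp from a TSS. In replicate 4 a summit within 1 bp of it ranked 5817, but in replicate 1 the summit at that base ranked 10900, and its best ranked 8115 and lay at -419 bp from a TSS. A stronger peak stood 844 bp past the 3′ end of the gene (summit 9565302, score 185.8, rank 927), outside protein-coding genes. That peak ranked 754 in replicate 1 and 1170 in replicate 4, and the nearest protein-coding TSS, that of Alp6, was 3664 bp away. Not3 (FBgn0033029, 2R, 5656406 to 5663222, minus strand), the gene of the NOT3 subunit, had no thresholded summit within 2 kb. Its best promoter summits ranked 5111 in replicate 1, at 157 bp after the TSS, and 7061 in replicate 4, at -40 bp, and the pooled rank was only 15517. The replicates thus placed it differently.

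The decapping and P-body genes ranged from the strongest signal to none. Edc3, an enhancer of decapping (FBgn0036735, 3L, 17525333 to 17529861, minus strand), had a thresholded peak with a score of 242.2 and rank 480, at -772 bp from its TSS and so beyond the promoter window. It ranked 683 in replicate 1 and 437 in replicate 4. The summit at 17530633 lay within an intron of Nedd4, which encodes a ubiquitin ligase, 552 bp after the Nedd4 TSS. At the shared start region of the 2 genes, 220 bp apart, the pooled list had a summit of rank 6679 only (17529873, score 55.8), with ranks 6014 and 7784 in replicates 1 and 4. Dcp1 (2R, 23888764 to 23890276, minus strand), the shortest of the 10 genes, had no thresholded summit within 2 kb. It had a summit below the threshold at -127 bp, rank 6833 in the pooled list (score 54.9), 7714 in replicate 1 and 8344 in replicate 4. It lay 109 bp from the TSS of DNAlig1, the gene of a DNA ligase.

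At me31B (FBgn0004419, 2L, 10239341 to 10242172, plus strand), which encodes the DEAD-box helicase of repressed mRNAs, no list had a summit within 2 kb. That held for 1279 of the 13945 protein-coding genes (9.17%). The nearest summit of the thresholded list lay 4913 bp from the gene, with rank 3229. Because each long list stops at 30000 peaks, a weaker enrichment would not be listed.

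The exonuclease gene pcm, the Xrn1 of flies (FBgn0020261, X, 19485759 to 19492011, minus strand), had the lowest score of the 5 genes when each is taken by its best promoter peak, though the second peak of twin scored lower still. The pcm score was 84.7 and the rank 3759, above 14.8% of thresholded promoter peaks. It ranked 2785 in replicate 1 and 4753 in replicate 4, where it fell outside the first 4477. The summit at 19492323 was at -312 bp from the pcm TSS and 98 bp from that of ND-18, which encodes a subunit of respiratory complex I and runs the other way. The nearest summits of the replicates were 15 bp (replicate 1) and 111 bp (replicate 4) from it.

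**Figure D3:**
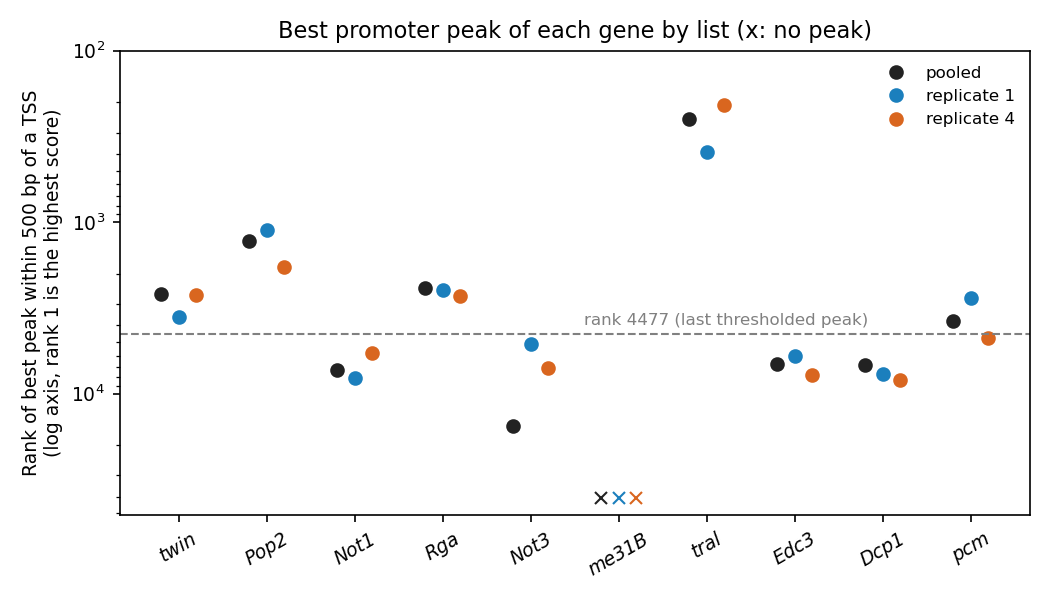
Rank of the best summit within 500 bp of a TSS (y axis, log, rank 1 at the top) for each gene on the x axis in the pooled list and both replicates, with the last thresholded rank, 4477, as a dashed line and crosses where there is none. tral ranks from 206 to 391 and Pop2 from 1107 to 1830, pcm lies on both sides of the line, and me31B has no such summit.

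The order of the promoter peaks was the same in both replicates at the top and differed below it. In both replicates tral came first and Pop2 second. Replicate 1 then had Rga, pcm and twin, at 2503, 2785 and 3578, whereas replicate 4 had twin, Rga and pcm, at 2675, 2708 and 4753. The ranks of twin thus did not separate from those of Rga and pcm. Rga came before pcm in both replicates, in replicate 1 by less than pcm itself moved between replicates. Between the replicates the rank differed 1.90-fold for tral, 1.71-fold for pcm, 1.65-fold for Pop2, 1.34-fold for twin and 1.08-fold for Rga. The median over the 3259 genes with a promoter summit in the thresholded and both replicate lists was 1.51-fold and the 90th percentile 2.82-fold. With the first 4477 peaks of replicate 1 alone the same 5 genes had a promoter peak (22.7% of all genes), and with those of replicate 4 alone 4 had one (23.4%), without pcm. Gene bodies held one at 2 genes in either replicate (13.4% of all genes in replicate 1 and 12.7% in replicate 4), and 7 and 6 genes had one within 2 kb (36.4% and 36.5%).

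**Figure D4:**
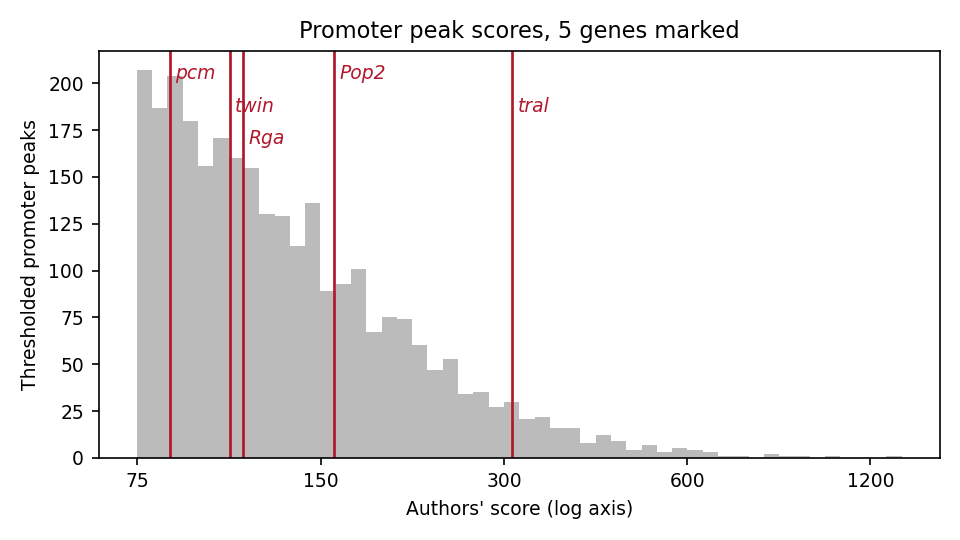
Scores of the 2851 thresholded promoter peaks (x axis, log; y axis, number of peaks), with the best promoter peak of each of the 5 genes as a red line. tral stands at 309.4 and Pop2 at 157.9, above the median of 119, and Rga, twin and pcm, at 112.0, 106.3 and 84.7, below it.

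All 5 of these promoter peaks also lay within 500 bp of the TSS of a gene transcribed the other way, so the peaks cannot be given to one gene of a pair. Of all 3283 genes with a thresholded promoter peak, 55.8% shared it in this way or with a gene on the same strand. Another gene's TSS lay within 1 kb of a TSS for 8 of the 10 genes and for 42.9% of all protein-coding genes, and Edc3, Dcp1 and Not1 have such a neighbour without a thresholded promoter peak. In position the sharing was uneven. The summit was nearer to the neighbour's TSS at tral (38 bp from sti), pcm (98 bp from ND-18), Rga (105 bp from Atu) and twin (30 and 54 bp from cav), and nearer to its own TSS at Pop2 alone (89 bp, against 151 bp from CG6928).

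Other genes of the pathway, listed with earlier results of these data known, had promoter peaks in 23 of 49 cases (46.9%), against 23.5% of all protein-coding genes. Peaks shared with a neighbouring gene were not counted apart, and the shares varied between groups of few genes. Of the factors that bring mRNAs to the deadenylase, 6 of 8 had a promoter peak. They included smg, the repressor of maternal mRNAs, with the highest score of these genes (349.9, rank 181, and 136 and 233 in replicates 1 and 4), and BicC (285.1, rank 313, and 281 and 368). bam had none. Of 4 genes grouped here by name as other deadenylases or their subunits, 3 had one, led by PAN3 of the Pan2-Pan3 deadenylase (287.7, rank 304, and 206 and 366). From this group angel had none. Of the other decapping and P-body factors, 7 of 15 had one, led by AGO1, the microRNA effector (287.0, rank 307, and 179 and 349), and the eIF4E-binding protein gene 4E-T had none. The Exosome and Ski complex had 5 of 12, Mtr3 being without. Only 1 of 4 other CCR4-NOT subunits and 1 of 6 genes of nonsense-mediated decay had one, and Cnot4 and Smg1 (nonC in the annotation) had none.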

How the data were processed

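Peaks of anti-GFP ChIP-seq were used as deposited, in 4 lists on dm6: 1 relaxed list for each replicate, 1 pooled list and 1 thresholded list. The authors called the relaxed lists with a control alignment as second input and derived the thresholded list from them by the irreproducible discovery rate procedure, per the deposited text record. Which caller and limits they used is not given in the sources used here. The deposited score is the authors' enrichment value per peak, and all 4477 thresholded peaks were the first 4477 of the pooled list. The deposited −log10 q-value stood at its highest value in 59.6% of thresholded peaks and was not used. Lists on dm3 were not used here, since no dm3 reference was at hand.

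Peaks were assigned by summit to the 19607 TSSs of protein-coding genes on 6 chromosome arms, with Python 3.11.15 and pandas 2.3.3, and positions are 1-based. Sequence came from the RefSeq copy of the same Release 6 assembly. Motifs were searched on both strands. Assignment and motif search were tested on simulated data. The genes, lists and windows were chosen with earlier results of these data known. All 10 genes are named; of other pathway genes, the 4 with the highest promoter scores and the first in the alphabet of each group without a peak. Of 52 pathway symbols, 5 were matched through synonyms and 3 (LSm2, LSm5 and LSm6) stayed unmatched. Alternatives in window, threshold, replicate, summit rule and motif form were tried.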

Additional observations from a re-analysis of the deposited data

How the results depend on the processing

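Of 30 alternatives over 6 counts, 20 stayed within 1.5 times the value reported. Genes with a promoter peak numbered 5, and 1 with a TSS window of 100 bp (Pop2, against 11.7% of all genes, so the share of the 10 genes was then no higher), 1 with the first 1000 peaks (tral), 2 with the first 2000 (Pop2 and tral) and 8 with the first 10000 pooled peaks, where 6.19%, 12.4% and 37.7% of all genes had one with the 3 peak numbers. Without one replicate the count was 4 or 5. Genes with a summit in the gene body numbered 2, and 1 with the first 1000 peaks (3.94% of all genes) and 4 with the first 10000 pooled peaks (22.9%); within 2 kb they numbered 7, and 3 with the first 1000 peaks (11.6%). Without one replicate these counts were 2 and 2, and 6 and 7. With a flank of 5 kb 8 genes had one, me31B included, against 49.7% of all genes. Genes with a core site at the promoter summit numbered 1, where 13.7% of all thresholded promoter summits had one, and 0 with TAACGG, against 15.7%. Anywhere in the peak, 3 genes had a core site (twin, Rga and tral). The whole peak offers more room for a match, and no share over all peaks was computed for it. Other pathway genes with a promoter peak numbered 23 of 49 (23.5% of all genes), and 8 with the first 1000 peaks (6.19%). With TSS windows of 100 and 1000 bp they numbered 16 and 25 (11.7% and 26.4% of all genes). Without replicate 1 they numbered 21 (23.4%) and without replicate 4 they numbered 23 (22.7%). Of the 9 thresholded peaks of the 10 genes, 8 had a summit within 100 bp in both replicates, against 92.0% of all thresholded peaks. No paired analysis was possible because there was 1 group. Read depth is unknown, so no count of reads limits or supports these values.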
